A study of Homo sapiens with 2 samples.

Results

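The genes described here are 47 genes of mitosis and the spindle, listed by name and found 1 time each among the 36601 genes of both count matrices. They were followed through single-cell RNA-seq of MDA-MB-231, a human line used as a model of triple-negative breast cancer. The D0 library holds parental cells kept in medium with 100 µM methionine. The D21 library holds revertant cells after 21 days in medium that lacks methionine, with 100 µM homocysteine plus 1.5 µM added vitamin B12. The paper states dialyzed serum for its custom media, such as that of D21, and does not say that the D0 cells were kept in one. For the vitamin B12 and homocysteine of the D0 medium the sample labels give no value. Each condition is 1 library, so no test was possible, all intervals cover counting error alone, and the day, the medium and the library cannot be told apart.

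The list covers the machinery that a cell assembles to divide. Cyclins A and B activate the kinase CDK1 for entry into mitosis, Polo and Aurora kinases build the spindle, and kinetochores attach chromosomes to its microtubules. The spindle checkpoint holds back the anaphase-promoting complex (APC/C) until all kinetochores are attached, after which securin and the cyclins are destroyed. Most of these transcripts accumulate in S and G2 phase, reach their peak in G2 and mitosis and are low in early G1. The MuvB complex with MYBL2 and FOXM1 drives many of their promoters, and the cell cycle genes homology region (CHR) and CCAAT boxes are sequence elements known from such promoters.

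The CHR letters were counted in the promoters, because many of the 47 genes are known for this shared control. RefSeq promoters of GRCh38.p14, windows of 300 bases with 250 before the start and 50 after it, were listed for 41 of the 47 genes, 46 windows in all. The letters TTTGAA or TTCGAA, read on both strands, stood in 34 of the 46 windows (73.9%) and in 16.4% of all 35116 windows of the same length. CCAAT, again on both strands, stood in 34 of the 46 (73.9%) and in 34.6% of all. Both were in 27 windows of the genes (58.7%) and in 6.38% of all. The E2F letters TTTCCCGC, TTTGGCGC or TTTCGCGC were in 5 of the 46 (10.9%) and in 2.74% of all. None of these letter strings can be read inside another. Windows of 30 bases around the CHR letters nearest the start are given for 10 genes that the results below turn on, 5' to 3' on the strand of the gene, with the CHR letters in capitals. The 4 genes that open the list were, in D0, at lower levels in cells with an S phase signature than in cells with neither an S nor a G2/M signature, and the other 6 span both ends of the D21/D0 ratios.
CCNB2 (chr15:59105105-59105134, plus strand): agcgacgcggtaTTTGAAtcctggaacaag
PLK1 (chr16:23678848-23678877, plus strand): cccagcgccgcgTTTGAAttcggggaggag
CDC20 (chr1:43358904-43358933, plus strand): cgacggttggatTTTGAAggagccaatagg
CDCA3 (chr12:6851272-6851301, minus strand): cgtggcgggaagTTTGAAactggtaacttc
MKI67 (chr10:128126435-128126464, minus strand): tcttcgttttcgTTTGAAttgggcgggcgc
HJURP (chr2:233854629-233854658, minus strand): gacgcaaatttgTTTGAAaggcccaatcag
TOP2A (chr17:40418030-40418059, minus strand): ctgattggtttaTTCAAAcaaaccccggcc
BUB1 (chr2:110678045-110678074, minus strand): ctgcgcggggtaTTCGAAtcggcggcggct
KIF23 (chr15:69414282-69414311, plus strand): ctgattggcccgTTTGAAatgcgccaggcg
CDCA8 (chr1:37692481-37692510, plus strand): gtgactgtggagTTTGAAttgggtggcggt
In CDC20 and TOP2A the CHR and CCAAT letters lay close together ahead of any annotated exon, and a longer stretch is given to show their spacing, with both elements in capitals (CCAAT reads as ATTGG on the other strand).
CDC20 (chr1:43358825-43358954, plus strand): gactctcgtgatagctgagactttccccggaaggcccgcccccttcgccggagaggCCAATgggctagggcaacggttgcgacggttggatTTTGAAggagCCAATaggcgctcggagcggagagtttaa
TOP2A (chr17:40417951-40418080, minus strand): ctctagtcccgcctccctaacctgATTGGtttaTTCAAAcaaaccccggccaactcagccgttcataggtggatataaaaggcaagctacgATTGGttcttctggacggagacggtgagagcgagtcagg
No CHR letters stood in the windows of KIF20A, CCNB1, TACC3, PTTG1, CKAP2, CENPE, AURKB, CCNA2 and KIF2C, genes with D21/D0 ratios on both sides of 1. Of these, KIF20A, CCNB1, PTTG1, AURKB and CCNA2 had CCAAT. These matches describe letters and do not show that a factor binds there. No form of the CHR other than TTTGAA and TTCGAA was searched, so a window without these letters was not shown to lack the element.

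A UMI is a unique molecular identifier that stands for 1 captured molecule. Cells were barcodes that reached a UMI minimum set for each library, with at least 500 genes and at most 20% mitochondrial UMIs. This gave 7492 cells in D0 and 12487 in D21, with medians of 18908 and 12022 UMIs per cell, and 21 cell barcodes occurred in both libraries. The cells held 183098116 UMIs in D0 and 182839048 in D21. Markers of the line were present in both libraries, with VIM at 4157 and 2876 CPM (UMIs of the gene scaled to 1000000 UMIs of the cells) and KRT18 at 858 and 885 CPM, while none of 6 blood or endothelial markers exceeded 0.563 CPM. Free RNA gave few UMIs of the 47 genes. Barcodes with 10 to 100 UMIs had an average of 62.3 UMIs in D0 and 54.4 in D21, which at their make-up corresponds to 0.326 and 0.244 UMIs of these genes per cell. The median cell held 73 and 52.

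The summed level of the 47 genes was slightly lower in D21 cells, and the genes did not move as a block. The sum was 5876 CPM in D0 and 5491 CPM in D21, a ratio of 0.934 (95% interval 0.932 to 0.937). Of the 47 genes, 29 had a ratio below 1, beside 50.6% of all genes, and 18 above 1, beside 49.4%. The interval of the ratio lay below 1 for 27 genes, above 1 for 15, and held 1 for 5. The median log2 ratio was -0.08 over the 46 genes that reached 20 CPM in D0 or D21, and -0.0030 over all 6867 such genes. Genes were called lower by size alone where the D21 level was at most 0.8 times the D0 level, and higher where the D0 level was at most 0.8 times the D21 level. By this rule 5 of the 46 genes (10.9%) were lower at D21, beside 12.7% of all genes, and 0 were higher, beside 6.09%. At 1.5-fold, the count was 1 lower gene, beside 3.47% of all genes, and 0 higher, beside 1.12%. The share of these genes called lower was therefore near the background. When D21 cells were held to the UMI minimum of D0, the sum ratio was 0.987 and the counts were 3 lower genes of 46 (6.52%), beside 12.6% of all genes, and 3 higher (6.52%), beside 7.5%.

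**Figure D1:**
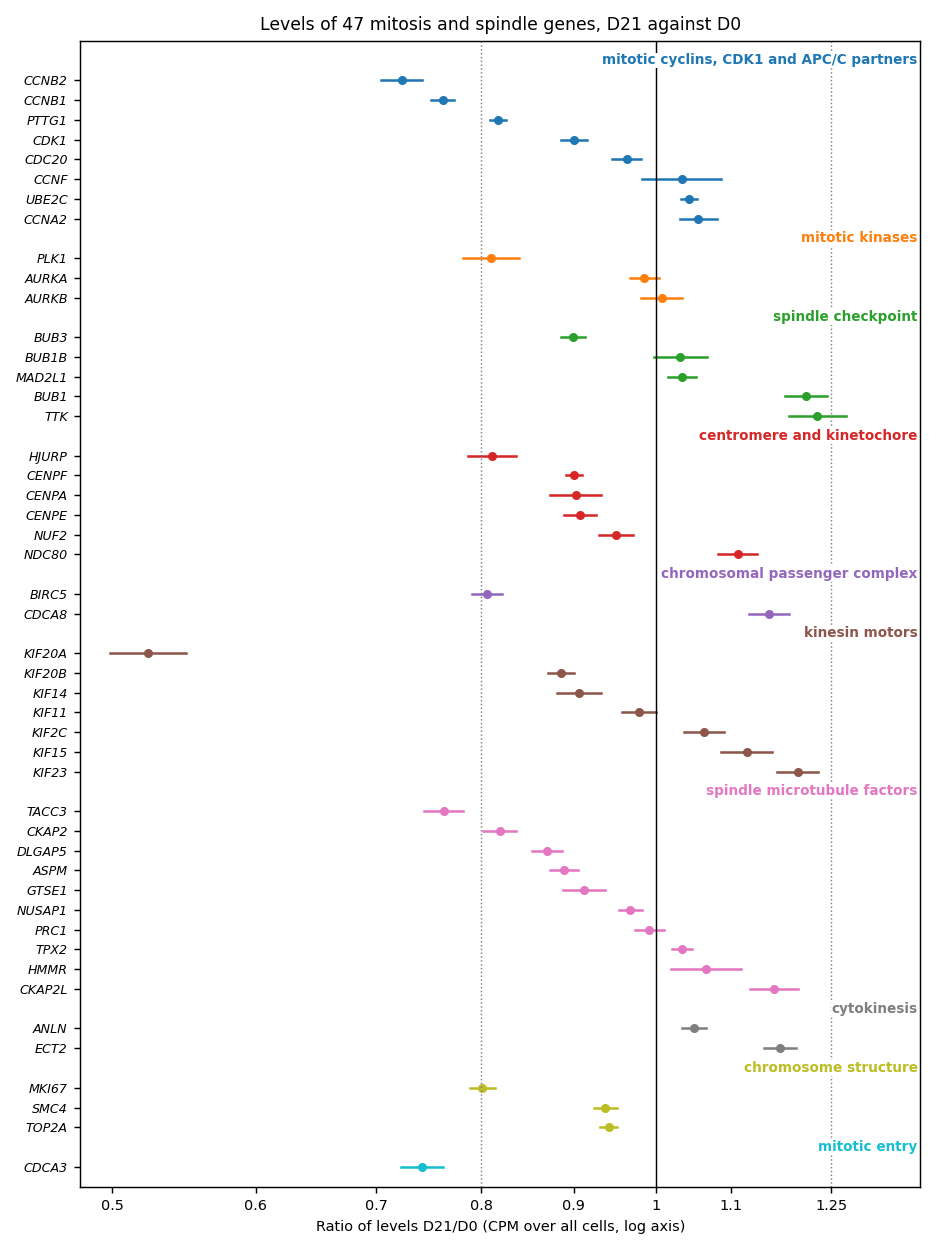
Ratio of the level in D21 cells to that in D0 cells for each of the 47 genes (points) with its 95% counting interval (lines), on a log axis, grouped by role. The dotted lines mark the sizes beyond which a gene was called lower or higher. KIF20A stands alone at 0.523, CCNB2, CDCA3, CCNB1 and TACC3 lie between 0.723 and 0.762, and TTK has the highest ratio at 1.23.

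KIF20A differed most. It encodes a kinesin that carries Aurora B to the central spindle for cytokinesis, and lies at chr5:138178719-138187715 (plus strand, GRCh38). Its level was 26.5 CPM in D0 and 13.9 CPM in D21, a ratio of 0.523 (0.498 to 0.549) from 4853 and 2535 UMIs. After thinning of every cell to the same number of UMIs, 10.9% of D0 cells and 5.88% of D21 cells had at least 1 of its UMIs, and before thinning 29.5% and 14.1%. Among cells with few UMIs of the other 46 genes, at most 5, the share was 0.353% and 0.181%, so cells with a KIF20A UMI were for the most part cells that also held other genes of the list. The ratio ranged from 0.488 to 0.554 over the 9 alternative ways of scaling, weighting and filtering the cells.

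Of the cyclins, CDK1 and the APC/C partners, the 2 B-type cyclins passed the size rule as lower at D21. CCNB2 (chr15:59105078-59125045), a B-type cyclin, was at 75.9 CPM in D0 and 54.9 CPM in D21, a ratio of 0.723 (0.704 to 0.742). CCNB1 (chr5:69167010-69178245), the main CDK1 partner at mitotic entry, was at 221 and 168 CPM, a ratio of 0.762 (0.751 to 0.773), but at 0.804 it was no longer called with the D0 UMI minimum in both libraries. PTTG1, the securin that restrains separase, was at 416 and 340 CPM, a ratio of 0.817 (0.809 to 0.826) that did not pass the rule. It differed from most of the list in how widely it was detected. In thinned cells, 69.8% of D0 cells and 64.5% of D21 cells had a PTTG1 UMI, and 42.6% and 36.0% did among cells with few UMIs of the other genes. Before thinning 86.2% and 79.2% had one. CDK1 itself was at 161 and 145 CPM, a ratio of 0.90 (0.885 to 0.915). CCNA2, the cyclin of S and G2 phase, was at 76.8 and 81.0 CPM, a ratio of 1.06 (1.03 to 1.08). The APC/C activator CDC20 had a ratio of 0.963 (0.945 to 0.981) and the APC/C ubiquitin-conjugating enzyme UBE2C, one of the most abundant at 384 and 401 CPM, a ratio of 1.04 (1.03 to 1.05). Both ratios crossed 1 under an alternative and are given without a direction. CCNF, the F-box protein cyclin F, had 16.5 and 17.1 CPM and was the only gene under 20 CPM in both libraries.

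Among the mitotic kinases PLK1, the Polo kinase, was at 37.4 CPM in D0 and 30.3 CPM in D21, a ratio of 0.810 (0.782 to 0.840). The Aurora kinases were near 1, with a ratio of 0.985 (0.967 to 1.00) for AURKA and 1.01 (0.981 to 1.03) for AURKB, and both crossed 1 under an alternative. In the checkpoint, the kinase genes had the highest ratios of all 47 genes. TTK (chr6:80003887-80042527), the kinase MPS1 that starts checkpoint signalling, was at 29.4 and 36.1 CPM, a ratio of 1.23 (1.18 to 1.27). BUB1 (chr2:110637698-110678114, minus strand), a checkpoint kinase at the kinetochore, was at 54.1 and 65.5 CPM, a ratio of 1.21 (1.18 to 1.24). MAD2L1, which encodes the MAD2 inhibitor of CDC20, was at 123 and 127 CPM (ratio 1.03, 1.01 to 1.05). BUB3, which also has uses outside the checkpoint, was at 183 and 165 CPM (ratio 0.899, 0.886 to 0.914). BUB1B, the gene of BUBR1, had a ratio of 1.03 with an interval that held 1 (0.997 to 1.07).

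Genes of the centromere and kinetochore were mostly below 1, with 5 of 6 there, NUF2 crossing 1 under an alternative. HJURP, the chaperone that places CENP-A, was at 49.1 CPM in D0 and 39.8 CPM in D21 (ratio 0.811, 0.786 to 0.837). CENPA, the histone variant that marks the centromere, was at 41.4 and 37.3 CPM (ratio 0.902, 0.873 to 0.932). CENPF, a large kinetochore protein that builds up in G2, was the most abundant of the 47 genes, at 448 and 403 CPM (ratio 0.901, 0.892 to 0.910). The kinetochore motor CENPE had a similar ratio of 0.908. The partners NDC80 and NUF2, which bind microtubules in the same complex, had ratios of 1.11 (1.08 to 1.14) and 0.95 (0.929 to 0.970). The pair of chromosomal passenger genes was split as well, since BIRC5, the gene of survivin, was at 127 and 103 CPM (ratio 0.806, 0.791 to 0.822) and CDCA8, the gene of borealin, at 61.2 and 70.6 CPM (ratio 1.15, 1.13 to 1.18). Subunits of shared complexes therefore differed in ratio in both cases by more than their counting intervals.

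The 7 kinesins had ratios from 0.523 to 1.20. After KIF20A came KIF20B and KIF14, both linked to cytokinesis, which did not pass the size rule, with ratios of 0.885 (0.871 to 0.90) and 0.906 (0.881 to 0.932). KIF11, the motor Eg5 that separates the spindle poles, had a ratio of 0.978 that crossed 1 under an alternative. KIF15, a motor that also helps to keep the spindle bipolar, was at 37.6 and 42.1 CPM (ratio 1.12, 1.09 to 1.16). KIF2C, the microtubule depolymerase MCAK, had a ratio of 1.06 (1.04 to 1.09). KIF23, the motor of centralspindlin, was at 56.9 CPM in D0 and 68.2 CPM in D21, a ratio of 1.20 (1.17 to 1.23). The cytokinesis genes ECT2 and ANLN were, like KIF23, above 1. ECT2, the activator of RhoA that centralspindlin recruits, was at 95.4 and 112 CPM (ratio 1.17, 1.15 to 1.19), and ANLN, the scaffold anillin, at 175 and 184 CPM (ratio 1.05, 1.03 to 1.07).

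Of 10 spindle microtubule factors, 7 were below 1, among them NUSAP1 and PRC1, which crossed 1 under an alternative. TACC3 (chr4:1721490-1745176), which steadies kinetochore fibres, was at 79.4 CPM in D0 and 60.5 CPM in D21, a ratio of 0.762 (0.744 to 0.782) that became 0.81, past the rule no longer, with the D0 UMI minimum in both. CKAP2 was at 109 and 89.5 CPM (ratio 0.819, 0.802 to 0.836). DLGAP5, a stabiliser of kinetochore fibres, had a ratio of 0.870, ASPM, a spindle pole protein, 0.889, and GTSE1, which restrains MCAK, 0.912, each with an interval below 1. NUSAP1 and PRC1, which bundle microtubules, had ratios of 0.968 and 0.991. On the other side stood TPX2, the activator of Aurora A, at 263 and 272 CPM (ratio 1.03, 1.02 to 1.05), HMMR (1.07, 1.02 to 1.11) and CKAP2L, at 41.2 and 47.9 CPM (ratio 1.16, 1.13 to 1.20). The 3 chromosome genes were below 1, although TOP2A crossed 1 when both libraries had the UMI minimum of D0. MKI67, the gene of the Ki-67 proliferation marker, was at 194 and 155 CPM (ratio 0.801, 0.789 to 0.814), the condensin subunit SMC4 at 197 and 184 CPM (ratio 0.937, 0.923 to 0.951), and topoisomerase TOP2A at 373 and 351 CPM (ratio 0.941, 0.931 to 0.951). CDCA3 (chr12:6844793-6852066, minus strand), described as a trigger of mitotic entry, was at 70.7 and 52.5 CPM, a ratio of 0.742 (0.722 to 0.762).

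Fewer D21 cells held a very high sum of these genes, and more held an intermediate sum. Cells of both libraries were thinned to the UMI minimum of D21, so that all of them entered. A high cell was one with more than 70 UMIs of the 47 genes, the 90th percentile of D0. High cells made up 9.64% of D0 cells (95% interval 8.98 to 10.3) and 6.34% of D21 cells (5.92 to 6.78). The difference was -3.29 percentage points and lay between -2.53 and -4.66 under 8 alternatives, which include cells that were not thinned (10.0% and 6.35%), but was -0.66 and -0.72 points in 2 of 3 ranges of like depth described below. Above the 95th percentile of D0 the shares were 5.01% and 2.42%. The largest difference between the libraries lay in the middle. Cells with 19 to 44 UMIs made up 25.3% in D0 (24.3 to 26.3) and 32.5% in D21 (31.7 to 33.4), and cells with 6 to 18 UMIs 23.8% and 19.4%. The lowest band, at most 5 UMIs, held 26.4% and 26.6%. Accordingly the median was higher in D21, 22 against 18 UMIs, while the average was lower, 26.9 against 28.5. The cut runs through a continuous range, and 397 D0 cells (5.30%) and 585 D21 cells (4.68%) lay within 10% of it.

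**Figure D2:**
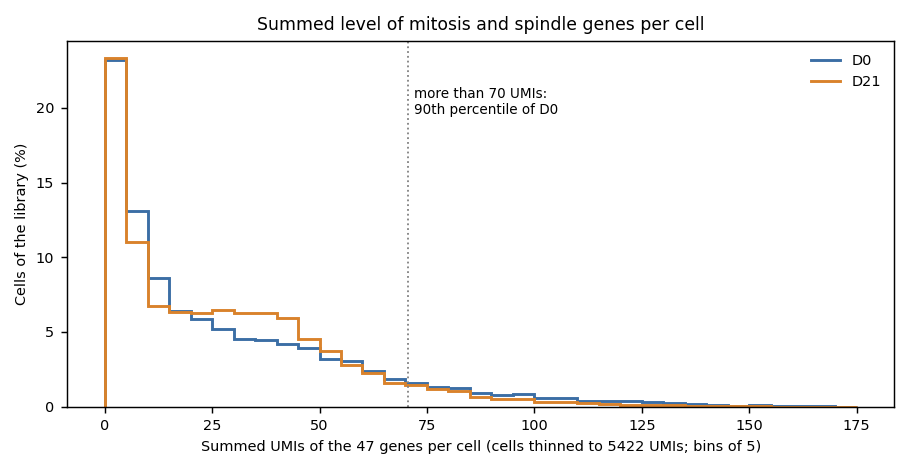
Share of cells (percent of the library, vertical axis) by summed UMIs of the 47 genes per cell (horizontal axis, bins of 5) after thinning to 1 depth, D0 in blue and D21 in orange. D21 has more cells between 20 and 50 UMIs and fewer to the right of the dotted line at 70 UMIs, where 9.64% of D0 and 6.34% of D21 cells lie.

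Depth moved with this measure. Cells were put in order of their UMIs and split into 4 bins of like size. From the shallowest to the deepest bin, the level of the 47 genes went from 3645 to 6667 CPM in D0 and from 3539 to 6282 CPM in D21. The share of high cells was 7.10%, 8.01%, 12.5% and 10.9% over these bins of D0 cells, and 4.36%, 5.22%, 6.95% and 8.84% over those of D21 cells. The bins differ in depth between libraries, with medians of 11779, 16258, 22602 and 40876 UMIs in D0 and 7083, 10242, 14424 and 24106 in D21. Within the same range of UMIs the shares were closer. High cells were 6.51% (5.47 to 7.67) of D0 and 5.85% (5.11 to 6.66) of D21 cells with 10000 to 15000 UMIs, and 9.06% (7.75 to 10.5) and 8.34% (7.12 to 9.69) with 15000 to 20000 UMIs, where the intervals overlap. From 20000 to 30000 UMIs they were 12.7% (11.2 to 14.4) and 9.04% (7.73 to 10.5). Cells with more RNA thus held a larger fraction of these transcripts in both libraries, and these ranges were chosen after the data had been seen.

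To compare the genes at like positions in the cell cycle, cells were classed with genes outside the list. The sum over 56 other G2/M genes and over 59 DNA replication and S phase genes was cut at the 80th percentile of D0, 51 and 28 UMIs in thinned cells. Cells above the G2/M cut alone (G2/M only) were 18% of D0 cells (17.1 to 18.9) and 12.4% of D21 cells (11.9 to 13.0). Cells above the S cut alone (S only) were 18.1% and 17.3%, cells above both 1.56% and 1.27%, and cells above neither 62.3% and 69.0%. The classes are ranges of a score and not cell types. The G2/M cut is a fixed count. Over the other G2/M genes with at least 20 CPM, the summed level was lower in D21 (ratio 0.905). Cells at like positions could thus fall on different sides of the cut, and the shares were not compared at like depth. Within 10% of the G2/M cut lay 10.2% of D0 and 11.5% of D21 cells, and within 10% of the S cut 7.61% and 9.80%. In G2/M only cells the median cell had 68 UMIs of the other G2/M genes in D0 and 62 in D21, and 14 and 15 of the S genes. In S only cells it had 36 and 34 UMIs of the S genes, and 30 and 31 of the other G2/M genes. In neither cells it had 18 and 20 UMIs of the other G2/M genes, and 11 and 13 of the S genes.

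The 47 genes followed these classes closely. Their summed level was 3643 CPM in D0 cells of neither class, 4712 in S only, 10015 in both and 13560 in G2/M only. All 47 genes were at least 2-fold higher in G2/M only than in neither cells of D0, beside 2.56% of all genes, and 46 of 47 in D21, beside 2.05%, the exception being BUB3 at 1.92-fold. The class was set with other genes of the same phase, so this rise is no independent result. G2/M only was the class of the highest level for 42 genes in D0 and 40 in D21, and cells above both cuts for the other 5 and 7. From neither to G2/M only cells the widest span in D0 was that of AURKA, 5.84-fold from 63.8 to 373 CPM, followed by CDCA8, 5.54-fold from 30.2 to 167 CPM. The narrowest between these classes was that of BUB3, 2.16-fold from 141 to 305 CPM. PTTG1, which was detected widely, spanned 2.21-fold.

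Within the classes the comparison of D21 with D0 changed side. In neither cells the summed level was 3643 CPM in D0 and 3969 CPM in D21, a ratio of 1.09 (95% interval 1.085 to 1.094), and 36 of 47 genes were above 1, or 34 of the 44 with at least 20 CPM in the class (77.3%), beside 49.6% of all genes. In S only cells it was 4712 and 5270 CPM, a ratio of 1.12 (1.11 to 1.13), and 38 genes were above 1, or 36 of 44 (81.8%), beside 50%. In G2/M only cells it was 13560 and 12832 CPM, a ratio of 0.946 (0.942 to 0.951), and 28 genes were below 1 (59.6%), beside 47.5%. Cells above both cuts had 10015 and 10136 CPM, a ratio of 1.012 (0.995 to 1.029), and 29 genes were above 1. The summed level was thus higher at D21 in neither and S only cells and lower in G2/M only cells. Since the genes that set the classes differ between libraries too, the classes may not hold cells at the same position.

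**Figure D3:**
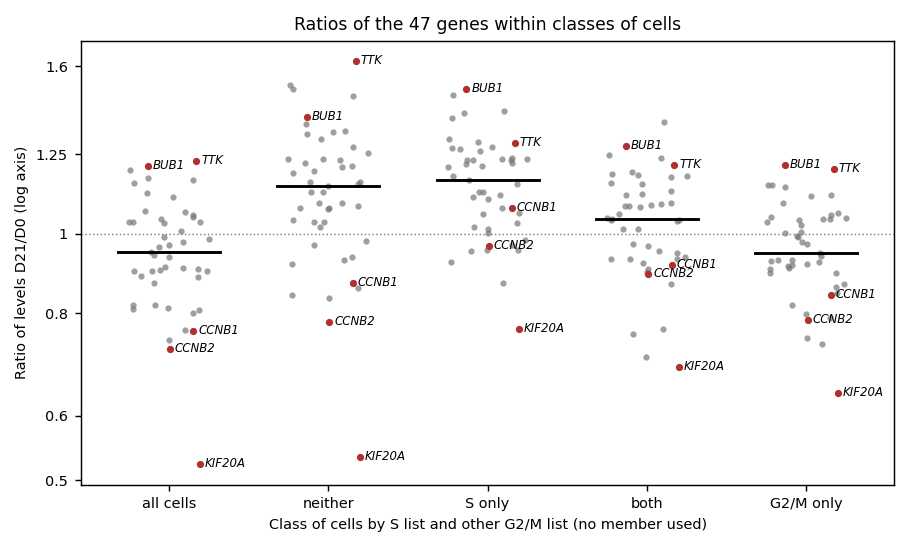
Ratio of D21 to D0 levels (vertical axis, log scale) for the 47 genes over all cells and within 4 classes of cells (horizontal axis), each point a gene and each bar the median. The medians are 1.15 in neither, 1.16 in S only, 1.04 in both and 0.948 in G2/M only cells, and KIF20A is the lowest gene in each class.

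By the same size rule, 12 of the 44 genes in neither cells (27.3%) were higher in D21, beside 6.81% of all genes, and 1, CCNB2, was lower, beside 12.9%. The 12 were CCNA2, UBE2C, AURKA, BUB1, TTK, NDC80, CDCA8, KIF15, KIF23, KIF2C, CKAP2L and ECT2. The largest was TTK, at 15.5 CPM in D0 and 25.2 CPM in D21 neither cells, a ratio of 1.63, which reached 20 CPM in D21 only. KIF20A, at 16.4 and 8.755 CPM (ratio 0.534), was below 20 CPM in both libraries and is not counted. Next stood KIF23, at 32.3 and 49.0 CPM (ratio 1.52), and CDCA8, at 30.2 and 45.4 CPM (ratio 1.50). In S only cells 10 of 44 genes (22.7%) were higher, beside 6.66% of all genes, and 0 lower, beside 12.1%, with BUB1 at 43.3 and 65.0 CPM (ratio 1.50) the highest. In G2/M only cells 0 genes were higher, beside 9.75% of all genes, and 6 of 47 (12.8%) were lower, beside 13.7%. These were KIF20A, at 74.3 and 47.5 CPM (ratio 0.639), TACC3 (0.733), CDCA3 (0.747), CCNB2 (0.784), MKI67 (0.790) and HJURP (0.799). Their share was near the background, whereas the shares in neither and S only cells were above it. The classes were set with genes of the same phases, and the background of all genes does not allow for this. The excess can therefore not be read as particular to the 47 genes. In all 4 classes 19 of the 47 genes were above 1, TTK and BUB1 among them, and 7 were below 1, namely CCNB2, PTTG1, BUB3, BIRC5, KIF20A, TACC3 and MKI67. CCNB1 was at 135 and 118 CPM in neither cells (ratio 0.870) and at 621 and 522 CPM in G2/M only cells (ratio 0.841), but at 72.9 and 78.4 CPM in S only cells (ratio 1.07).

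The genes differed in how they stood in S only cells, and the D21/D0 ratios over all cells went with this difference. In D0, 10 of the 47 genes had a lower level in S only than in neither cells, 9 of them among the 44 with at least 20 CPM (20.5%), beside 41.9% of all genes. They were CCNB1, CCNB2, CDC20, PTTG1, PLK1, CENPA, CENPE, KIF20A, DLGAP5 and CDCA3. KIF20A, at 16.4 CPM in neither and 8.63 CPM in S only cells of D0, had 0.527 times the level, CCNB1, at 135 and 72.9 CPM, 0.540 times, and PLK1, at 21.6 and 12 CPM, 0.556 times. At the other end, KIF15 had 2.25 times the level in S only cells (22.8 and 51.4 CPM), HJURP 2.13 times (23.6 and 50.3 CPM) and CKAP2L 2.11 times (23.2 and 48.8 CPM). All 10 genes with the lower S level had a D21/D0 ratio below 1 over all cells, from 0.523 to 0.963, with a median log2 ratio of -0.30, although CDC20 crossed 1 under an alternative. Of the other 37 genes 19 were below 1 and 18 above 1, with a median log2 ratio of -0.01. With the split taken from D21 cells, 9 genes had the lower S level, 7 of them among the 44 with at least 20 CPM (15.9%), beside 39.2% of all genes, with AURKA in and CENPE and CDCA3 out, and all 9 had ratios below 1, although the interval of AURKA holds 1 and AURKA and CDC20 crossed 1 under an alternative. Within S only cells the 10 genes split off in D0 did not share a direction. There KIF20A (0.765), PTTG1 (0.923) and CCNB2 (0.967) had D21/D0 ratios below 1. The rest of the 10 were above 1, up to 1.29 for CDC20. This split was made after the values had been seen, and the levels that set it in D0 share the D0 cells with the ratios.

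**Figure D4:**
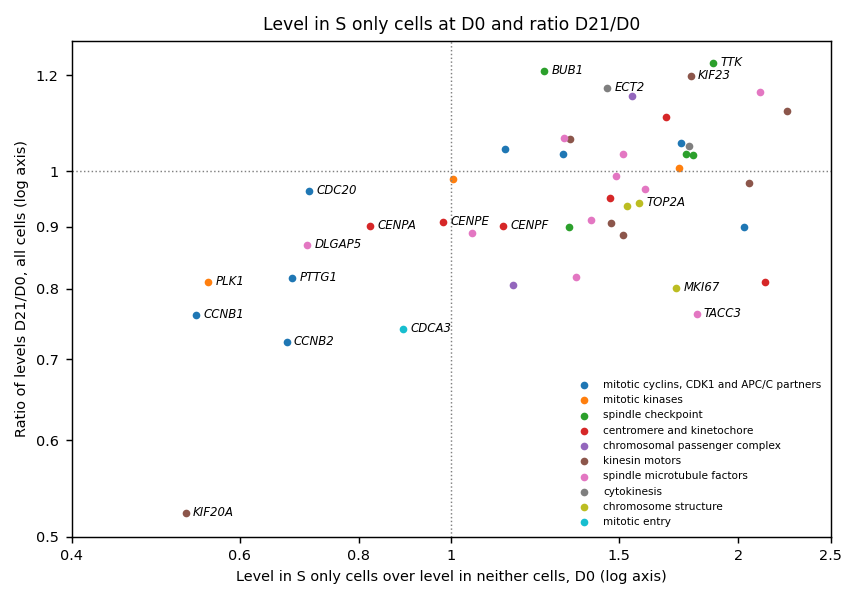
Level in S only cells over that in neither cells of D0 (horizontal axis, log scale) against the D21/D0 ratio over all cells (vertical axis, log scale), each point a gene coloured by role. The 10 genes to the left of 1, led by KIF20A at 0.527, all lie below a D21/D0 ratio of 1, and the 37 genes to the right lie on both sides of it.

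Between the cells of a library the genes varied together. Pearson's r of log(1 + UMIs) in thinned cells had an average of 0.301 over the 1081 pairs of genes in D0 (7492 cells) and 0.254 in D21 (12487 cells), with a range of 0.055 to 0.685 and of 0.060 to 0.662. All pairs come from the same cells of 1 library and share its counting noise, which lowers r for genes with few UMIs. The S list averaged 0.118 and 0.0992 over pairs, and a list of cohesin and condensin subunits 0.0779 and 0.0783. Condensin subunits such as SMC4 and NCAPG are not in that list, because they belong to the 47 genes or to the other G2/M genes. CENPF and TOP2A formed the pair with the highest r in D21, 0.662, and had 0.685 in D0, followed by UBE2C and TOP2A (0.685 and 0.627) and CENPF and TPX2 (0.657 and 0.623). Against the sum of the other 46 genes CENPF had r of 0.778 and 0.751, TOP2A 0.731 and 0.721, and TPX2 0.699 and 0.685. The lowest was CCNF with 0.232 and 0.210, the gene with the fewest UMIs in D0. KIF20A had 0.334 in D0 and 0.236 in D21. Many of the weakest pairs held CCNF, for example CCNF and HMMR with 0.055 and 0.082, which lie on the same side of the S split. Pairs of genes from opposite ends of the split were also among the weakest, for example PLK1 and KIF15 with 0.095 and 0.060. These 2 genes were at 37.4 and 37.6 CPM in D0, so their low r may reflect few UMIs. The summed level of the 47 genes followed that of the other G2/M genes with r of 0.893 and 0.896, and that of the S genes with 0.452 and 0.579.

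**Figure D5:**
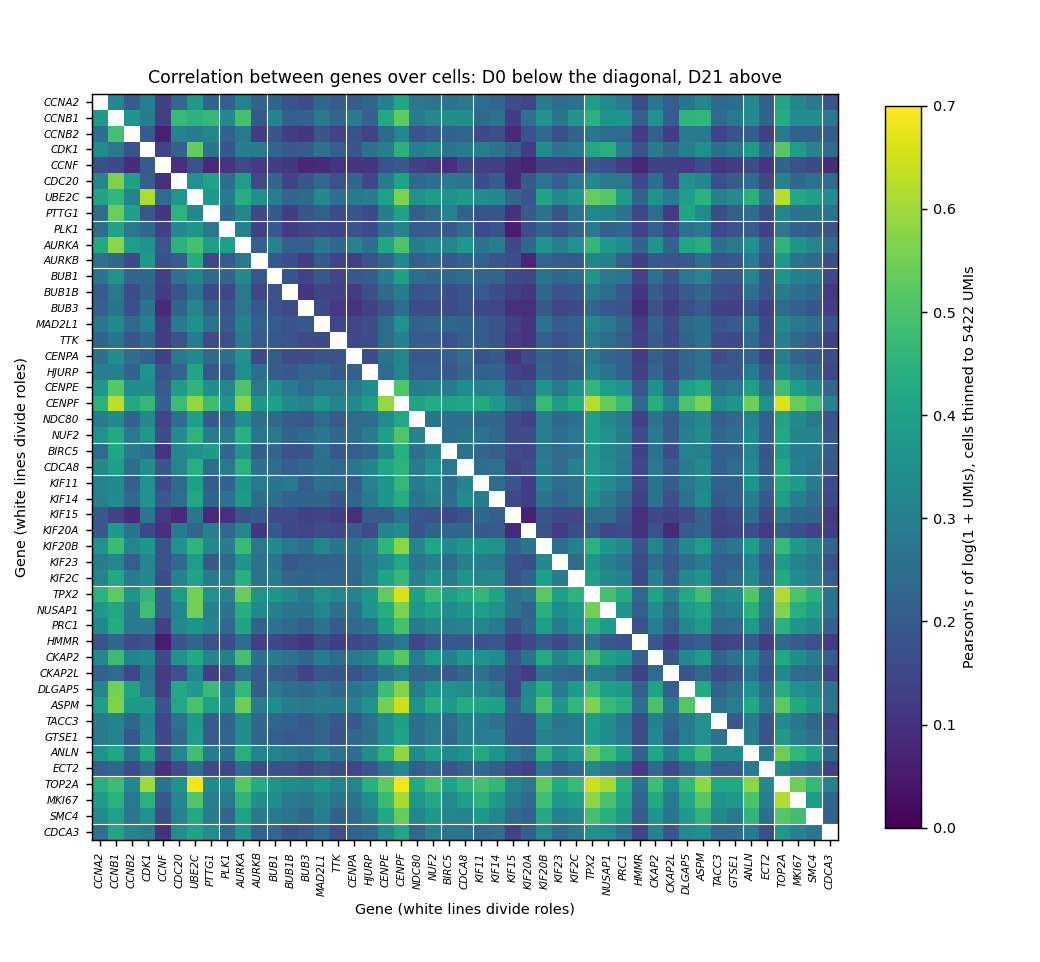
Pearson's r between each pair of the 47 genes over thinned cells, D0 below the diagonal and D21 above, genes ordered by role on both axes, colour from 0 to 0.7. Rows of CENPF, TPX2, TOP2A and UBE2C stand out as bright, with r up to 0.685, and CCNF, KIF15, KIF20A and HMMR as dark.

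Outside the list, the 10 genes whose level went most closely with the summed level in both libraries, of 6319 with at least 20 CPM in both, were HMGB2, H2AFZ, UBE2S, CKS2, CKS1B, HIST1H4C, HMGB1, STMN1, TUBA1B and NCAPG. HMGB2, a chromatin protein, led with r of 0.669 in D0 and 0.670 in D21. H2AFZ, the gene of histone H2A.Z, had 0.642 and 0.669, and UBE2S, the APC/C enzyme that extends ubiquitin chains, 0.680 and 0.623. Their levels did not share a direction. H2AFZ was at 1156 CPM in D0 and 1314 CPM in D21 (ratio 1.14, 1.13 to 1.14), whereas TUBA1B, an alpha tubulin, was at 1632 and 996 CPM (ratio 0.611, 0.607 to 0.614) and the histone gene HIST1H4C at 1236 and 742 CPM (ratio 0.601, 0.597 to 0.605). HIST1H4C belongs to a family of near-identical genes, most of whose transcripts lack a poly(A) tail, so its value is uncertain.

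Other genes of the same pathway were read as lists, beside 12.7% of all genes lower and 6.09% higher. Of 50 other G2/M genes with at least 20 CPM, 9 were lower (18%) and 0 higher by the size rule, with a median log2 ratio of -0.10. The tubulin gene TUBB4B, one of the most abundant, was at 649 and 426 CPM (ratio 0.656, 0.650 to 0.662). The others of the 4 most abundant were nearer to 1, with ratios of 0.919 for STMN1, 0.867 for UBE2S and 1.01 for JPT1. Of 48 DNA replication and S phase genes, 3 were lower (6.25%) and 1 higher (2.08%), with a median of -0.0034, and the most abundant, TYMS (thymidylate synthase), was at 199 and 211 CPM. Of 12 APC/C subunits none was lower or higher (median log2 ratio 0.08), nor was any of 11 cohesin and condensin subunits (0.02). Of 8 G1 cyclins, their kinases and inhibitors, 2 were lower (25%) and 0 higher (median -0.17), and cyclin D1 (CCND1) was at 451 and 391 CPM (ratio 0.868). Of 17 genes among FOXM1, MYBL2, the E2F factors and MuvB subunits, 2 were lower and 2 higher, 11.8% each (median 0.02). FOXM1, at 35.5 and 29.6 CPM (ratio 0.834, 0.804 to 0.865), and MYBL2, at 30.4 and 25.9 CPM (ratio 0.854, 0.821 to 0.888), did not pass the rule. The 4 that did, named like FOXM1 and MYBL2 after their values were seen, were E2F1, at 41.7 and 28.5 CPM (ratio 0.682), E2F4 (0.736), MYBL1, at 31.7 and 42.6 CPM (ratio 1.34), and LIN52 (1.32). The replication genes and the other G2/M genes also served to set the classes above.

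The cells of both libraries fall into states marked by other genes, and the summed level was set beside them. Cells with more UMIs of CEMIP, SAA1 and SAA2 than of AGR2 and SPANXB1 made up 22.7% of D0 and 49.1% of D21 cells, and cells with the reverse 47.7% and 26.5%. High cells for the 47 genes were 5.93% (4.86 to 7.16) and 5.12% (4.59 to 5.71) of the CEMIP/SAA cells, and 10.1% (9.10 to 11.1) and 7.02% (6.17 to 7.95) of the AGR2/SPANXB1 cells. Cells equal in both had 11.8% and 8.05%. The CEMIP/SAA cells had fewer high cells in both libraries, although they were deeper, with a median of 23826 UMIs against 17187 in D0 and 13516 against 10272 in D21. The G2/M only class showed the same order, with 12.6% against 19.3% in D0 and 10.5% against 14.3% in D21. Below the high cells the order differed. The lowest band held 26.3% of CEMIP/SAA and 30.3% of AGR2/SPANXB1 cells in D0, and 25.3% and 32.5% in D21. The median cell of either state had 16 UMIs of the 47 genes in D0, and in D21 22 and 16. S only cells were 18.9% against 16.1% in D0 and 18.3% against 14.9% in D21. Within CEMIP/SAA cells the summed level was 5286 CPM in D0 and 5406 CPM in D21, and within AGR2/SPANXB1 cells 5786 and 5169 CPM. Among cells with at least 5 UMIs of IFIT1, IFIT2, IFIT3 and OASL, 3.07% of D0 and 2.60% of D21 cells, high cells were 5.65% (3.04 to 9.47) and 4.0% (2.15 to 6.74).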

How the data were processed

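Single-cell libraries of D0 and D21 MDA-MB-231 cells, 1 per condition, were analysed. Groups were taken from the sample labels. The deposited values are raw UMI counts per gene and barcode, which the authors made with Cell Ranger 4 (per the file headers) on GRCh38 (per the submitters' processing notes), and empty droplets are included. For the alignment settings and the gene annotation no source used here gives a value. From these counts, barcodes were taken as cells from a UMI minimum (9009 in D0, 5422 in D21), 10% of the count at the 99th percentile of the 5000 largest barcodes, 7503 and 12525, and 11 and 38 were removed for fewer than 500 genes or more than 20% mitochondrial UMIs. Doublets were kept, and an alternative left out the 5% of cells with the most UMIs.

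Counts were summed over cells and divided by the total (CPM), so a gene's level sets its precision: 2535 to 81994 UMIs per gene and library. Ratios have exact conditional 95% intervals of Poisson counts and shares exact binomial (Clopper-Pearson) intervals, both for counting error only. No p-value was computed. Genes were called by size alone, at 1.25-fold (a ratio of 0.8 or its inverse) and 1.5-fold, among those with at least 20 CPM in either library. Cells were thinned to 5422 UMIs (seed 1) for shares, classes and correlations. Gene positions come from GENCODE and promoters from RefSeq. Any of the 47 genes could be named; of other genes, the 10 closest by correlation, up to 4 of each list by level and the state genes. FOXM1, MYBL2, E2F1, E2F4, MYBL1 and LIN52 were named outside this rule, after their values were seen. The members and the lists were chosen with earlier results of these data known. Alternatives changed the scaling (total, median ratio, TMM), the weight of cells, thinning, filters, cuts and the correlation. The computations were tested on simulated data. Python 3.11.15, numpy 2.4.6, scipy 1.17.1, pandas 2.3.3, matplotlib 3.10.9, R 4.3.3 and edgeR 4.0.16 (TMM only) were used.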

Additional observations from a re-analysis of the deposited data

Results flagged for a closer look

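Barcodes with 1000 or more UMIs that were below the minimum for cells were used in no comparison, and they also held the 47 genes. There were 1942 such barcodes in D0, with a summed level of 4230 CPM, and 2601 in D21, with 3211 CPM. Their median share of mitochondrial UMIs was 0.188% in D0 and 6.88% in D21, beside 5.75% and 6.61% in cells. Barcodes with 10 to 100 UMIs, which hold free RNA, had more, 5224 and 4492 CPM.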

How the results depend on the processing

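No paired analysis was possible because each condition is 1 library, and variation between cultures could not be measured. No other setting took any of the 47 ratios more than 1.09-fold from its value. Over 9 alternative scalings, weights and cell filters, 22 genes stayed below 1 and 14 above 1, while CCNF, CDC20, UBE2C, AURKA, AURKB, BUB1B, NUF2, KIF11, NUSAP1, PRC1 and TOP2A crossed 1. The summed ratio was 0.926 with TMM scaling, 0.941 without mitochondrial UMIs, 0.942 as the mean of cells, 0.944 in thinned cells, 0.912 with a UMI minimum of 20% of the 99th percentile, 0.987 with the D0 UMI minimum in both libraries, 0.949 with at most 10% mitochondrial UMIs and 0.924 without the 5% of cells with the most UMIs. The median log2 ratio was -0.051 in thinned cells, -0.13 with the 20% minimum and reversed to 0.0065 with the D0 minimum in both, a setting that drops D21 cells of low depth. Genes called lower numbered 8 with the 20% minimum, 3 with the D0 minimum in both (KIF20A, CCNB2 and CDCA3) and 8 without the deepest cells. Genes called higher numbered 1 as the mean of cells, 2 in thinned cells and 3 with the D0 minimum in both. In these settings 12.6% to 13.6% of all genes were lower and 5.48% to 7.5% higher. The difference in high cells was -4.66 points with the 20% minimum, and -0.66 and -0.72 points in cells of 10000 to 15000 and of 15000 to 20000 UMIs, a setting chosen after seeing the data. The average r was 0.556 in D0 and 0.423 in D21 without thinning, and 0.230 in D21 with the D0 minimum. With classes cut at the 90th percentile, the summed ratio was 1.04 in neither and 0.971 in G2/M only cells. The cause of these shifts was not tested.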
